A study of Mus musculus with 23 samples.

Results

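The genes described here are 8 members of folate and one-carbon metabolism: Tyms, Mthfd1, Mthfd2, Mthfd1l, Shmt1, Shmt2, Mthfs and Slc19a1. They were chosen by name, and their probes were found through the RefSeq transcript that each array probe was designed on. This gave 11 probes of 55681 and 8 genes of the 20145 that could be named. Mthfd1l, Shmt1 and Slc19a1 had 2 probes each and the other 5 genes had 1.

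RNA came from TM4 cells, a mouse line of immortalized Sertoli cells (the cells that nurse germ cells in the testis), so every group shared 1 line. Cells were treated for 48 hr with 100 µM of mono(2-ethylhexyl) phthalate (abbreviated MEHP, into which the plasticizer DEHP is metabolized), diisononyl cyclohexane-1,2-dicarboxylate (DINCH), dioctyl maleate (DOM), 1,4-butanediol dibenzoate (BDB) or dioctyl succinate (DOS). All 5 compounds were given in 1% DMSO, and the control cells received DMSO alone. There were 23 1-colour arrays on 3 slides, 4 per group and 3 for DOS, and all 5 comparisons with the vehicle used the same 4 DMSO arrays. DOM, DOS and DMSO lay in the same rows of the slides, whereas MEHP, DINCH and BDB lay in different ones, and in these 3 comparisons with DMSO the compound and the slide row cannot be told apart.

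Folate carries one-carbon units that are used to make thymidylate, purines and methionine. The carrier enters the cell through transporters such as the product of Slc19a1, and its units come mainly from serine. The reactions run in parallel in the cytosol and in mitochondria. In mitochondria SHMT2 splits serine and passes a carbon to folate, MTHFD2 oxidizes the carbon unit and MTHFD1L releases it as formate. In the cytosol MTHFD1 takes up formate, SHMT1 interconverts serine and glycine, TYMS makes thymidylate and MTHFS returns formylated folate to the active pool. Proliferating cells have a high demand for these units.

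On each array the signal was expressed as log2 relative to the array's 75th percentile, and levels below are on this scale. A gene with several probes is given by its brightest probe unless stated. All 11 probes were well above background on all 23 arrays and none was saturated. The 75th percentile of the signal lay between 204.6 and 350.7 over the arrays, and 43.4% to 52.2% of spots were well above background. As a check of the cell line, 5 of 12 Sertoli cell markers (among them Inhbb, Dhh, Gata4 and Kitl) were detected on all 23 arrays, while Wt1 and Fshr were detected on none. Of markers for other testis cells, Cyp17a1, Prm1, Acta2, Cnn1 and Csf1r were detected on all arrays, and Cyp11a1, Hsd3b1, Ddx4, Dazl, Myh11, Adgre1 and Ptprc on none. In RNA from a whole culture, fewer cells of a type and less RNA per cell cannot be told apart.

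**Figure D1:**
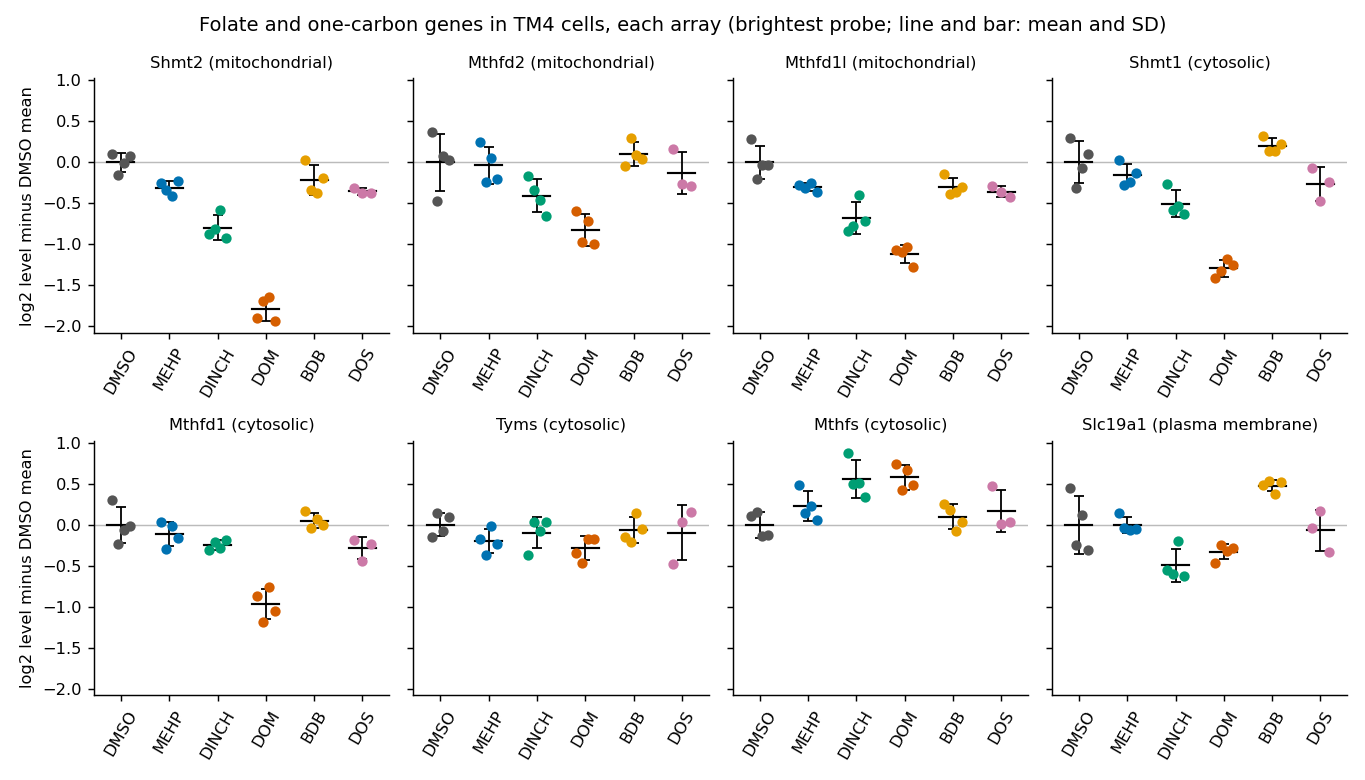
Level of the 8 genes on each of the 23 arrays (log2 signal of the brightest probe minus the mean of the DMSO arrays), with 1 panel per gene on a shared scale; points are arrays, lines are group means and bars are SD. Shmt2 sat between -1.94 and -1.65 with DOM, below all other arrays.

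More of these genes were called with DOM than with any other compound. The serine and formyl enzymes of both compartments (Shmt2, Mthfd1l, Mthfd2, Shmt1 and Mthfd1) were lower in cells treated with DOM, by 1.77-fold to 3.47-fold. Mthfs did not reach the fold threshold and lay above the vehicle, and Tyms and the folate carrier Slc19a1 did not pass the test. In total 5 of 8 genes fell and none rose (limma, adjusted p below 0.05 and more than 1.5-fold). Of all tested genes, 20.5% were called with DOM, 10.6% lower and 9.9% higher. The median change was -0.89 over the 8 genes and -0.03 over all tested genes.

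Shmt2, the mitochondrial serine hydroxymethyltransferase, had the largest change among the 8. Its level was 5.60, 5.34, 5.49 and 5.57 on the DMSO arrays and 3.60, 3.80, 3.85 and 3.56 on the DOM arrays. Every DOM array lay below every DMSO array, and no DOM array overlapped with those of any other compound either. The group means were 3.70 ± 0.14 with DOM and 5.50 ± 0.12 with DMSO (SD, n = 4 each). The log2 change was -1.80 with a standard error of 0.11 (95% interval -2.04 to -1.55, limma adjusted p = 7.73e-05), a 3.47-fold lower signal. Within the 3 slides the difference was -1.90, -1.56 and -2.01.

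The other mitochondrial enzymes moved the same way. Mthfd1l, whose product releases formate from mitochondria, lay at 5.13, 4.65, 4.81 and 4.81 with DMSO and at 3.77, 3.75, 3.82 and 3.57 with DOM. The arrays did not overlap, and the change was -1.12 (SE 0.12, limma adjusted p = 0.000416). The second Mthfd1l probe gave -1.17 (SE 0.17, limma adjusted p = 0.0012), so both probes fell. Mthfd2, the mitochondrial methylenetetrahydrofolate dehydrogenase, was more variable in the vehicle. It lay at 4.78, 3.93, 4.48 and 4.43 with DMSO and at 3.80, 3.42, 3.69 and 3.41 with DOM. The highest DOM array was 3.80 and the lowest DMSO array 3.93, so the groups were separate by a narrow margin. The change in Mthfd2 was -0.82 (SE 0.18, limma adjusted p = 0.00841), and by slide it was -1.16, -0.52 and -1.02.

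Of the cytosolic enzymes, Shmt1 and Mthfd1 fell. Shmt1, the cytosolic serine hydroxymethyltransferase, lay at -0.28, -0.88, -0.64 and -0.46 with DMSO and at -1.98, -1.89, -1.74 and -1.82 with DOM. All DOM arrays were well below the lowest vehicle array. The change was -1.30 (SE 0.14, 95% interval -1.60 to -0.99, limma adjusted p = 0.000383), whereas the second Shmt1 probe gave -0.66 (SE 0.13, limma adjusted p = 0.00558). Both probes fell, by different sizes. Mthfd1, which combines several folate interconversions in 1 cytosolic protein, lay at 3.47, 2.94, 3.11 and 3.16 with DMSO and at 2.30, 1.99, 2.41 and 2.12 with DOM. The arrays of both groups were separate, and the change was -0.96 (SE 0.14, limma adjusted p = 0.00137).

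The remaining 3 genes stood apart from these 5. Mthfs, which encodes the enzyme that acts on formylated folate, lay at -0.93, -0.88, -1.18 and -1.17 with DMSO and at -0.30, -0.62, -0.37 and -0.56 with DOM. Every DOM array was above every DMSO array. The difference of 0.58 (SE 0.12, 95% interval 0.31 to 0.84, limma adjusted p = 0.00616) passed the p threshold but was 1.49-fold, just under the fold threshold. It was called when DMSO replicate 1, DMSO replicate 2, DOM replicate 2 or DOM replicate 4 was left out, at 0.61 to 0.63. Tyms, thymidylate synthase, lay at -0.77, -0.49, -0.71 and -0.53 with DMSO and at -0.97, -1.09, -0.79 and -0.80 with DOM. The DOM arrays were all lower, yet the difference was only -0.29 (SE 0.11, 95% interval -0.54 to -0.03, limma adjusted p = 0.0821). Slc19a1, the reduced folate carrier, differed by -0.33 (SE 0.17, 95% interval -0.70 to 0.05, limma adjusted p = 0.167) on its brightest probe and by 0.00 (SE 0.14) on its second. Its 4 DOM arrays lay between 2.20 and 2.41, overlapping the lower end of the vehicle arrays (2.35 to 3.11). By slide the Slc19a1 difference was -0.80, -0.25 and 0.03. Altogether 6 of 8 genes had every DOM array below every DMSO array and 1 had every DOM array above. Over all tested genes these shares were 20.5% and 19%.

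**Figure D2:**
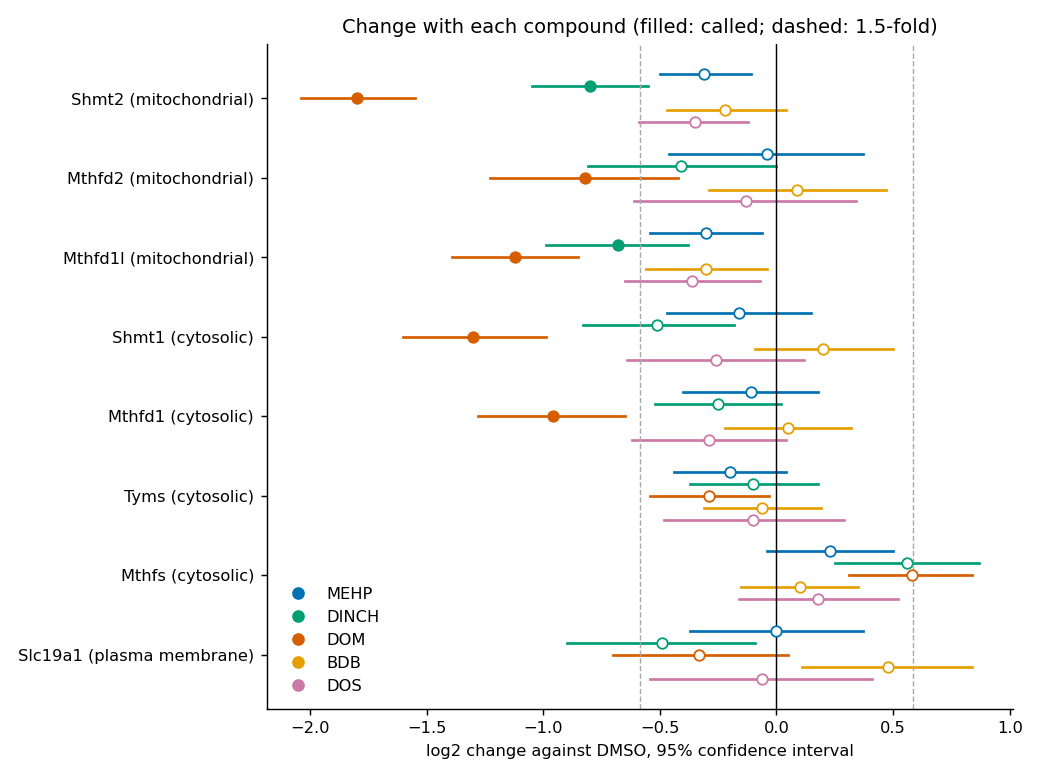
Log2 change of each of the 8 genes with each compound against DMSO (brightest probe); points are limma estimates, bars are 95% intervals, filled points passed both thresholds and dashed lines mark 1.5-fold. Filled points occur with DOM (5 genes) and DINCH (Shmt2 and Mthfd1l).

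Genes of the cell cycle were also lower with DOM. Of 10 listed cell cycle genes 9 fell with DOM, where 10.6% of all tested genes fell, with a median change of -1.77, and Ccnb1 and Tk1 were at -2.12 and -2.05. Their mean level relative to the vehicle lay between -1.96 and -1.13 on the DOM arrays and between -0.11 and 0.23 on the DMSO arrays. Of 10 genes known to be induced by ATF4, a transcription factor of the amino acid response that also drives mitochondrial folate enzymes, 5 fell with DOM, against the same 10.6%, with a median of -0.61. Hprt, a purine salvage gene often used as a reference, was at -0.57 (SE 0.13, limma adjusted p = 0.00947), under the fold threshold, while Actb was at -0.08 (limma adjusted p = 0.586). The part of these in the folate result was not tested.

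With DINCH, Shmt2 and Mthfd1l fell, which both encode mitochondrial enzymes. These were 2 of 8 genes, where 8.26% of all tested genes were called, 4.02% lower and 4.25% higher. They were also the 2 genes whose DINCH arrays all lay below the vehicle, and Mthfs was the 1 gene whose arrays all lay above it, where the shares over all tested genes were 12.4% and 11.6%. Shmt2 lay at 4.61, 4.69, 4.92 and 4.57 with DINCH, all below the vehicle arrays, a change of -0.80 (SE 0.11, 95% interval -1.05 to -0.55, limma adjusted p = 0.00537). Mthfd1l lay at 4.01, 4.07, 4.45 and 4.13, also below all vehicle arrays. Its change was -0.68 (SE 0.14, limma adjusted p = 0.0172) on the brightest probe and -0.76 (limma adjusted p = 0.0291) on the second. The call for Mthfd1l depended on 1 vehicle array, since without DMSO replicate 3 the adjusted p was 0.0517.

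No cytosolic gene was called with DINCH. Shmt1 was at -0.51 (SE 0.15, limma adjusted p = 0.0556) and Mthfd1 at -0.25 (SE 0.12, limma adjusted p = 0.229). Mthfd2, although mitochondrial, was at -0.41 (SE 0.18, limma adjusted p = 0.191), with DINCH arrays at 4.23, 4.07, 3.95 and 3.75 that overlapped the vehicle arrays. Mthfs lay at -0.15, -0.54, -0.53 and -0.69, above every vehicle array, and its difference of 0.56 (SE 0.14, limma adjusted p = 0.0324) was 1.48-fold and so again just short of the threshold. Without DINCH replicate 4 it was 0.63 and Mthfs was called, and without DMSO replicate 2 Shmt1 was called at -0.61 (limma adjusted p = 0.0398). Slc19a1 was at -0.49 (SE 0.18, limma adjusted p = 0.119) and Tyms at -0.10 (limma adjusted p = 0.671). Over the 8 genes the median was -0.45, and over all tested genes 0. Of the 10 ATF4-induced genes 5 fell with DINCH (median -0.57), where 4.02% of all tested genes fell. Only Trib3 (-0.68, limma adjusted p = 0.0269) was also among those that fell with DOM (-1.21), so the sets were otherwise different. Of the 10 cell cycle genes 1 fell with DINCH (Mcm2, -0.77, limma adjusted p = 0.0188), and the median of that list was -0.18. The part of these in the folate result was not tested.

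MEHP, BDB and DOS gave no call among the 8 genes. With MEHP 1.68% of all tested genes were called, 1.13% higher and 0.552% lower, and with BDB and DOS 0% were. At an unadjusted limma p below 0.05 on any probe there were 2 members with MEHP (Shmt2 and Mthfd1l), 2 with BDB (Slc19a1 and Mthfd1l) and 3 with DOS (Shmt2, Mthfd1l and Shmt1), against 21.6%, 19% and 7.73% of all tested genes. Shmt1 counted with DOS through its second probe (limma unadjusted p = 0.0142), whereas its brightest probe was at 0.149. For MEHP and BDB these member counts were near the share over all genes. The Shmt2 arrays with MEHP, at 5.24, 5.16, 5.09 and 5.26, were all below the vehicle, and so were those with DOS, at 5.19, 5.12 and 5.12. The differences for Shmt2 were -0.31 with MEHP (SE 0.09, limma adjusted p = 0.114) and -0.35 with DOS (SE 0.10, limma adjusted p = 0.522). For Mthfd1l they were -0.30 (SE 0.11, limma adjusted p = 0.196) and -0.36 (SE 0.13, limma adjusted p = 0.61), again with no overlap with the vehicle. These were the 2 of 8 genes whose arrays all lay below the vehicle in each of the 2 comparisons, where the share over all tested genes was 6.63% with MEHP and 3.8% with DOS. No member lay above the vehicle on all arrays, against 7.78% and 4.33% of all tested genes. With BDB both genes were on the same side, and their arrays overlapped the vehicle. Shmt2 was at -0.22 (SE 0.11, limma adjusted p = 0.427) and Mthfd1l at -0.30 (SE 0.12, limma adjusted p = 0.274). The comparisons share their DMSO arrays, so they are not independent of each other.

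Of the other genes, Mthfd2, Mthfd1, Shmt1, Tyms and Mthfs were not called with these 3 compounds either. Mthfd2 differed by -0.04 with MEHP (95% interval -0.46 to 0.37), by 0.09 with BDB (-0.29 to 0.47) and by -0.13 with DOS (-0.61 to 0.34). Mthfd1 was at -0.11, 0.05 and -0.29 in the same order, Shmt1 at -0.16, 0.20 and -0.26, and Tyms at -0.20, -0.06 and -0.10. Mthfs was on the upper side in each, at 0.23, 0.10 and 0.18, and its arrays overlapped those of the vehicle. The intervals of Mthfd2 include moderate changes in either direction, so such changes could not be detected with this number of arrays. The second probes did not all follow the brightest. All 3 DOS arrays of the second Shmt1 probe (-1.58 to -1.55) lay below the vehicle (-1.35 to -1.06) with no call (limma adjusted p = 0.573), and the second Mthfd1l probe overlapped the vehicle with MEHP and with DOS.

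From the highest group to the lowest, the level of Shmt2 was ordered DMSO (5.34 to 5.60), BDB (5.12 to 5.53), MEHP (5.09 to 5.26), DOS (5.12 to 5.19), DINCH (4.57 to 4.92) and DOM (3.56 to 3.85). Neighbours overlapped from DMSO down to DOS, whereas DINCH and DOM each formed a separate range. Mthfd1l had the same 2 groups at the bottom, DINCH (4.01 to 4.45) and DOM (3.57 to 3.82), although the highest DINCH array passed the lowest DOS array (4.42). For Shmt1 and Mthfd1 the DOM range alone stood clear of all other groups, and DINCH overlapped with DOS. Mthfs had DOM (-0.62 to -0.30) and DINCH (-0.69 to -0.15) at the top, overlapping each other. Tyms had no group whose range was separate from all others.

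With BDB the folate carrier lay on the upper side of the vehicle, with no call. Slc19a1 lay at 3.15, 3.19, 3.04 and 3.18 with BDB and at 3.11, 2.41, 2.78 and 2.35 with DMSO. A single vehicle array, replicate 1, reached the BDB values, and 3 of 4 BDB arrays lay above all vehicle arrays. The difference was 0.48 (SE 0.16, 95% interval 0.11 to 0.84), with a limma adjusted p of 0.213. By slide the difference was 0.04, 0.53 and 0.83. The second Slc19a1 probe gave 0.32 (SE 0.12, limma adjusted p = 0.276). No member had all BDB arrays above or all below the vehicle arrays, against 3.29% and 8.66% of all tested genes.

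The compounds were given at 1 dose and time, which allows them to be compared directly. DOM and DOS are diesters of the same alcohol that differ in the diacid, where maleate has a carbon-carbon double bond and succinate does not. All 5 genes that fell with DOM against the vehicle were also lower with DOM than with DOS, where 15.2% of all tested genes were called, 8.06% lower and 7.15% higher. Shmt2 differed by -1.44 (SE 0.11, limma adjusted p = 0.000998), with DOM arrays of at most 3.85 and DOS arrays of at least 5.12. Shmt1 differed by -1.03 (SE 0.13, limma adjusted p = 0.00237), although its second probe gave -0.33 (limma adjusted p = 0.125). Mthfd1l (-0.76, limma adjusted p = 0.00357), Mthfd1 (-0.67, limma adjusted p = 0.0122) and Mthfd2 (-0.69, limma adjusted p = 0.0211) followed. Without DOS replicate 1, Mthfd1 and Mthfd2 had adjusted p of 0.0523 and 0.0714, and 3 of 8 genes were called. Mthfd1 also missed the threshold without DOS replicate 4 (adjusted p = 0.0529), as did Mthfd2 without DOM replicate 2 (0.0654) or DOM replicate 4 (0.0535). Tyms differed by -0.19 (95% interval -0.58 to 0.19), Slc19a1 by -0.26 (-0.57 to 0.05) and Mthfs by 0.40 (0.06 to 0.74), which did not pass the test.

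DOM was also set against MEHP and DINCH, which lay in other rows of the slides, so that row and compound cannot be told apart. The same 5 genes were lower with DOM than with MEHP, by -1.49 for Shmt2, -1.14 for Shmt1, -0.85 for Mthfd1, -0.82 for Mthfd1l and -0.78 for Mthfd2 (limma adjusted p of 0.00291 or less), where 19.5% of all tested genes were called, 9.9% lower and 9.59% higher. Slc19a1 differed by -0.33 (limma adjusted p = 0.0184), under the fold threshold. Against DINCH, 3 of 8 genes were lower with DOM, where 23.3% of all tested genes were called, 11.6% lower and 11.8% higher. They were Shmt2 at -1.0 (limma adjusted p = 0.000335), Shmt1 at -0.79 (limma adjusted p = 0.000862) and Mthfd1 at -0.71 (limma adjusted p = 0.0016). The second Shmt1 probe was not called in either comparison. It was at -0.47 against MEHP (limma adjusted p = 0.0146, under the fold threshold) and at -0.35 against DINCH (limma adjusted p = 0.0814). Mthfd1l and Mthfd2 were at -0.44 and -0.42, with adjusted p of 0.024 and 0.047, under the fold threshold. Mthfs did not differ beyond the spread between DOM and DINCH, with a difference of 0.02 and an interval of -0.30 to 0.33. These 3 direct comparisons share the DOM arrays, and p-values were adjusted over the probes of each comparison and not over the 3.

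**Figure D3:**
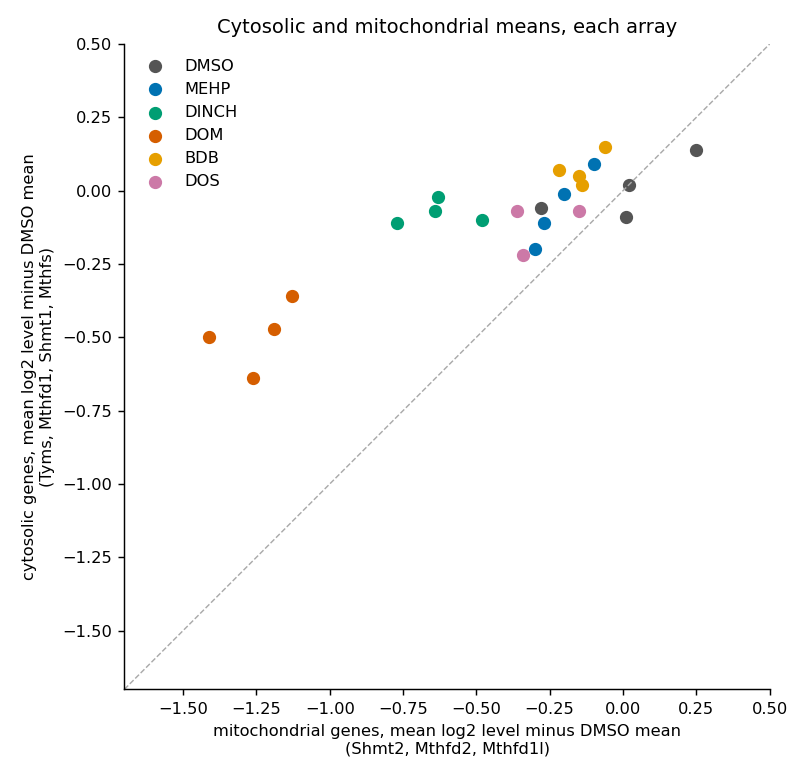
Mean log2 level minus the DMSO mean on each array, for the cytosolic genes Tyms, Mthfd1, Shmt1 and Mthfs (vertical axis) against the mitochondrial genes Shmt2, Mthfd2 and Mthfd1l (horizontal axis); points are arrays, coloured by group, and the dashed line marks equal values. The DOM and DINCH arrays lie above the line, where the mitochondrial mean is the lower one, by 0.62 to 0.91 and by 0.38 to 0.66. Arrays of the other compounds also lie above it, by 0.08 to 0.30.

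Both compartments were then compared on each array. The change of each gene from the DMSO mean was averaged over the 4 cytosolic genes and over the 3 mitochondrial genes, and the values are given as a description with no test. Slc19a1, a transporter of the plasma membrane, belonged to neither. With DOM the cytosolic mean was -0.49 ± 0.12 and the mitochondrial mean -1.25 ± 0.12 (SD, n = 4). The cytosolic minus mitochondrial difference was 0.72, 0.62, 0.77 and 0.91 on the 4 DOM arrays, against -0.11, 0.21, -0.10 and 0.00 on the DMSO arrays. With DINCH the cytosolic mean was -0.07 ± 0.04 and the mitochondrial mean -0.63 ± 0.12, a difference of 0.61, 0.58, 0.38 and 0.66 on the arrays. All DOM and DINCH arrays thus had the mitochondrial genes further down than the cytosolic genes, and none overlapped with DMSO. The probes of the compartments also differed in brightness. DMSO means were 4.40 to 5.50 for the mitochondrial genes, 3.17 for Mthfd1 and -1.04 to -0.56 for Tyms, Shmt1 and Mthfs. The part of signal level in the contrast was not tested. The difference was smaller with BDB (0.22 ± 0.05), MEHP (0.16 ± 0.05) and DOS (0.16 ± 0.12, n = 3), where some or all arrays lay inside the range of the vehicle. All arrays of these compounds had the same direction, at 0.16 to 0.29, 0.10 to 0.20 and 0.08 to 0.30, and all compounds share the DMSO mean.

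Except with BDB, the contrast between compartments was smaller without Mthfs and Tyms, on the enzymes that have a counterpart in both. Over all 4 cytosolic genes it was 0.75 with DOM, 0.56 with DINCH and 0.22 with BDB. When Shmt1 and Mthfd1 alone were set against the 3 mitochondrial genes, a comparison added after the values were seen, the difference was 0.12 with DOM, 0.25 with DINCH, 0.27 with BDB, 0.08 with MEHP and 0.01 with DOS. On these genes the BDB value was no longer below those of DOM and DINCH. The brightest Shmt1 probe was at -1.30 with DOM, beside -1.12 for the mitochondrial Mthfd1l and -0.82 for Mthfd2, but the second Shmt1 probe, at -0.66, was nearer to 0 than both. With DOM the serine and formyl enzymes of both compartments were thus lower, while Mthfs and the 1 Tyms probe were not among those that fell. A brighter probe on the transcript of a Tyms pseudogene did fall with DOM and is described below. A wider set of genes for each compartment gave 0.45 with DOM and 0.17 with DINCH.

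**Figure D4:**
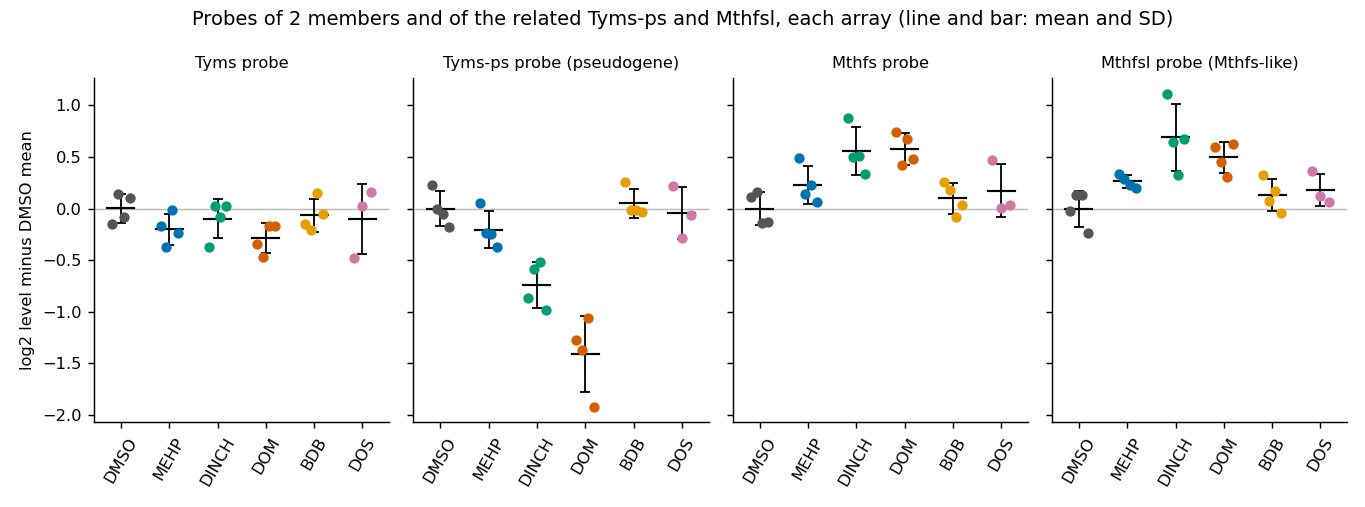
Level of the probes for Tyms, Tyms-ps, Mthfs and Mthfsl on each array (log2 signal minus the mean of the DMSO arrays), with 1 panel per probe on a shared scale; points are arrays, lines are group means and bars are SD. The Tyms-ps probe has its lowest arrays with DOM, below all other groups, whereas the Tyms groups overlap apart from DOM and DMSO.

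The value for Tyms depends on the transcript that a probe was designed on. The array also carries a probe on the transcript of Tyms-ps, a transcribed pseudogene of Tyms, which is no member by the rule and was looked at after the values were seen. This probe lay at 3.38, 3.14, 3.10 and 2.97 with DMSO and at 1.88, 1.78, 2.09 and 1.23 with DOM. The arrays did not overlap, and the probe fell by 1.40 on the log2 scale (SE 0.18, limma adjusted p = 0.00078) with DOM and by 0.74 (SE 0.14, limma adjusted p = 0.0132) with DINCH. The Tyms probe was much dimmer, with a DMSO mean of -0.62 beside 3.15 for the Tyms-ps probe. Which of the 2 genes the transcripts on each probe came from was not tested. The Tyms values here are those of 1 probe and may not stand for the gene. With the Tyms-ps probe in place of the Tyms probe, the difference between compartments was 0.48 with DOM and 0.40 with DINCH. For Mthfs, a probe on the related Mthfsl transcript was at 0.50 (SE 0.12, limma adjusted p = 0.0137) with DOM, under the fold threshold, and rose by 0.69 (SE 0.17, limma adjusted p = 0.0318) with DINCH.

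The promoters of 6 of the genes are shown to set the 5 that fell with DOM (Shmt2, Mthfd1l, Mthfd2, Shmt1 and Mthfd1) beside Mthfs, which lay above the vehicle. Each run holds the 150 bases before the start of the transcript, 5′ to 3′ on the strand of the gene, from RefSeq on GRCm38.p6. Capitals mark CCAAT (the NF-Y box) and GGGCGG (the SP1 box) on either strand, so that ATTGG and CCGCCC are the reverse matches.
Shmt2, chr10:127522445-127522594, minus strand: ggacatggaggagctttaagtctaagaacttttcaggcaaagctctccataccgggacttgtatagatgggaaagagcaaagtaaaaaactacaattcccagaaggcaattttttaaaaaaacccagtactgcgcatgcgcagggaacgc
Mthfd1l, chr10:3972925-3973074, plus strand: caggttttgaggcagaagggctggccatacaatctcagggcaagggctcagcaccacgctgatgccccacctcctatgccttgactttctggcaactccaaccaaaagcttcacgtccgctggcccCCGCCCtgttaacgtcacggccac
Shmt1, chr11:60811266-60811415, minus strand: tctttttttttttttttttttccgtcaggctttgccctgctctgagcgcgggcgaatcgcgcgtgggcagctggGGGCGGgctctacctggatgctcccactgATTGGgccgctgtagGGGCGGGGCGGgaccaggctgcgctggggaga
Mthfd1, chr12:76255082-76255231, plus strand: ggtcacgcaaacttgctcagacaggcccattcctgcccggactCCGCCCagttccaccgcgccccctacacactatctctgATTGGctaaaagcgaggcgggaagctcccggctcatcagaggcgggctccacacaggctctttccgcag
Mthfd2, chr6:83317605-83317754, minus strand: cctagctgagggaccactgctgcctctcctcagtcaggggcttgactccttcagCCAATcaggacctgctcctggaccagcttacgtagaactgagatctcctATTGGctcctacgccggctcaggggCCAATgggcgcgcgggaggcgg
Mthfs, chr9:89211040-89211189, plus strand: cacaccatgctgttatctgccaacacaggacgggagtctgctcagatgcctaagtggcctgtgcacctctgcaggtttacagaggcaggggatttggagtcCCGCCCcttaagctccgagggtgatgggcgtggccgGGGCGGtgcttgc

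All 8 genes were matched to promoter windows, 10 in total because Mthfs and Slc19a1 had 2 each, and each window ran from 250 bases before the start to 50 after it. CCAAT on either strand was in 3 of the 10 windows, those of Shmt1, Mthfd1 and Mthfd2, against 37.4% of 32851 mouse windows. The Mthfd2 window held 3 such matches. GGGCGG on either strand was in 7 windows of 6 genes, against 35.7% of all windows, and 2 of the matches in Shmt1 overlap each other. The windows of Mthfs overlap, so the matches in the first are counted again in the second. The window of Shmt2, the gene with the largest change, held neither. No window of the 8 genes held the E2F motifs TTTCGCGC or TTTGGCGC (0.323% and 0.514% of all windows) or the ATF4 and C/EBP motif TGATGNAA (3.97%), on either strand. These matches describe the letters in the windows and nothing was measured on binding.

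Levels of the 8 genes varied together to different degrees over the 23 arrays, which share treatments and slides, and the following are descriptions. Among Shmt1, Shmt2, Mthfd1, Mthfd2 and Mthfd1l the Pearson correlation was between 0.816 and 0.957 over 10 pairs, with Mthfd1l and Shmt2 at the top. They were grouped because they fell with DOM, and the DOM arrays are included, so high values among these genes are partly built in. Tyms correlated with these at 0.114 to 0.408 and Slc19a1 at 0.535 to 0.664. Mthfs was lower where they were higher, at -0.687 to -0.432. Of the 11158 genes detected on all arrays, those with a pattern most like Mthfd2 included Rcc2 (0.921) and Nif3l1 (0.919). Those most like Tyms were Gkn3 (0.809), Glp2r (0.787) and Uts2r (0.767).

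**Figure D5:**
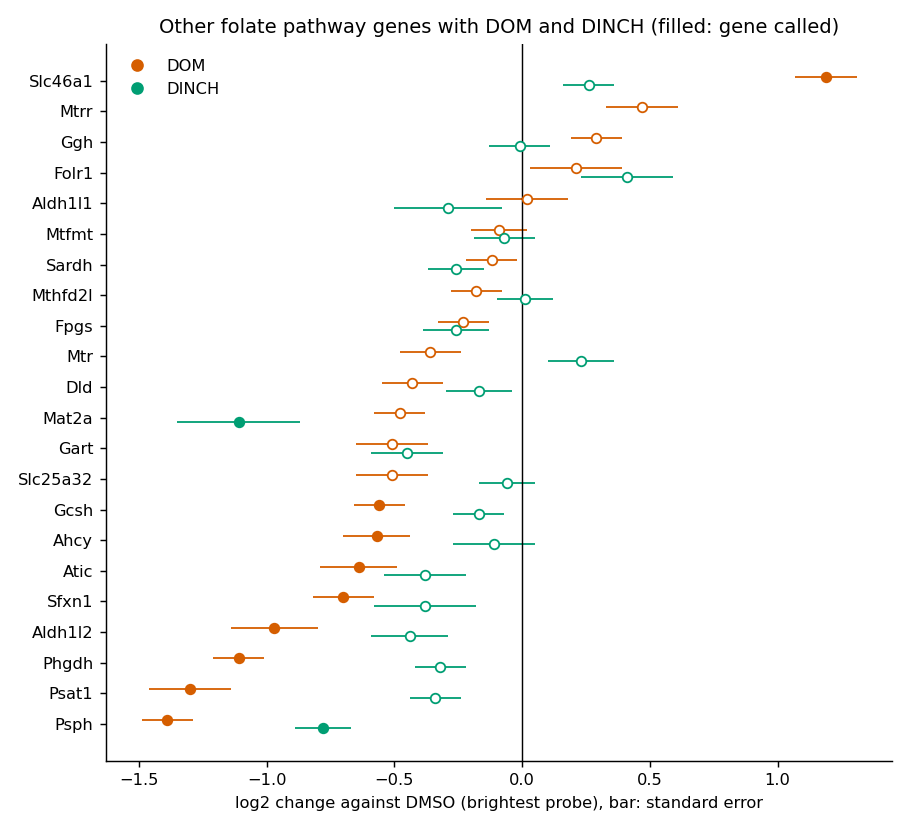
Log2 change of 22 of the other folate and one-carbon genes with DOM and with DINCH against DMSO (brightest probe); bars are standard errors and filled points mark genes that were called on any probe. The serine synthesis genes Psph, Psat1 and Phgdh lie furthest to the left with DOM, and Slc46a1 lies furthest to the right.

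The wider pathway was described with 30 further genes, of which 24 were tested with DOM. There 9 fell and 1 rose, against 10.6% and 9.9% of all tested genes, and the median was -0.46. The enzymes that make serine, the main source of carbon units, fell together: Psph by 1.39 on the log2 scale (SE 0.10, limma adjusted p = 0.00016), Psat1 by 1.30 (SE 0.16, limma adjusted p = 0.000634) and Phgdh by 1.11 (SE 0.10, limma adjusted p = 0.000241). Sfxn1, which carries serine into mitochondria, was at -0.70 (limma adjusted p = 0.00313). Aldh1l2, a mitochondrial enzyme that oxidizes formyl folate, was at -0.97 (limma adjusted p = 0.00324) and Atic, of purine synthesis, at -0.64 (limma adjusted p = 0.0113). Ahcy, of the methylation cycle, and Gcsh, of the glycine cleavage system, were called on another probe than their brightest. Slc46a1, the proton-coupled folate transporter, rose by 1.19 (SE 0.12, limma adjusted p = 0.000298), whereas the carrier Slc19a1 did not pass the test.

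With DINCH 2 of 23 tested genes of the wider pathway were called, both lower, where 8.26% of all tested genes were called and 4.02% were lower, so the count was near the background. The median was -0.23. Psph was at -0.78 (SE 0.11, limma adjusted p = 0.00555) and Mat2a, which makes the methyl donor S-adenosylmethionine, at -1.11 (SE 0.24, limma adjusted p = 0.0214). None of 23 genes was called with MEHP, none of 25 with BDB and none of 23 with DOS, and the medians were -0.12, -0.03 and -0.04.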

How the data were processed

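Cy3-labelled RNA of each TM4 sample was hybridized to its own Agilent mouse array, and the authors extracted the spots with Feature Extraction 11.5.1.1. The deposited processed intensity is linear, with background and spatial trend removed, and arrays were not scaled to each other. A second table deposited by the authors holds log2 values relative to the 75th percentile of the array, centred per probe on the median. It was used as an alternative, and its columns correlated with their own arrays at 0.9995 or more. The series calls the arrays of a group biological replicates, and 1 DOS sample was left out by the study.

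Outlier-flagged spots were left out, the signal was floored at 1, the 75th percentile of the array was subtracted on the log2 scale, and spots of a probe were averaged. Probes were named through their RefSeq accession (26582 of 55681, 20145 symbols; 29099 were not named). Tested probes were those detected well above background, and no lower than the 20th percentile of their array, on all arrays of 1 or both groups. Each pair of groups was fitted with limma 3.58.1 in R 4.3.3 (with version 1.17.8 of data.table), the Benjamini-Hochberg adjustment ran over all tested probes, and a gene was called when any probe had an adjusted p below 0.05 and changed more than 1.5-fold. Brightest means the highest mean over the 23 arrays. Figures were drawn with Python 3.11.15 and matplotlib 3.10.9. The fit of DOM against DMSO was tested on simulated data, and the other steps were not. The members, lists and tests were chosen with earlier results of these data known. The text names all 8 members, called genes of the wider pathway, and examples of the other lists. Some genes that meet these rules count in the totals but are not reported here.

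Replicate numbers were checked by the correlation of same-numbered arrays' deviations from their group means. Every pair was above 0.1 for DINCH (0.162 to 0.561), BDB (0.31 to 0.458), DOS (0.254 to 0.511), DOM against DOS (0.119 to 0.442) and DOM against MEHP (0.262 to 0.656). There the numbers may pair the arrays, on the evidence of the values alone. The main fits used no pairing in any comparison, and a block for the replicate number was run as an alternative. For MEHP and DOM with DMSO, and for DOM with DINCH, not every pair was above 0.1 (lowest -0.159, 0.0626 and -0.04). In each of these comparisons the arrays of the lowest pair lay on different slides. The part of a shared slide in these correlations was not tested.

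Alternatives included quantile normalization, normexp (median signal, offset 50), dim probes kept, a filter needing detection on any 1 array, a block for the slide or for the replicate number, 1 fit over all groups, flagged spots included, only brightest probes, a variance trend, the values of the authors, other memberships of the compartments, and leaving out each array.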

Additional observations from a re-analysis of the deposited data

Results flagged for a closer look

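Of the 40 sets of 4 arrays examined (8 genes in 5 groups), 1 held an array far from the other 3. For Slc19a1 in the MEHP group, replicate 1 lay at 2.81 and the other arrays between 2.60 and 2.62, so that the gap was 0.91 of the range, above Dixon's 95% critical value. Chance flags about 1 in 20 such sets.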

How the results depend on the processing

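Over 1200 recomputed changes of single genes, 1176 kept their side of the threshold, 16 lost the call and 8 gained it. No change that was called in either fit reversed its direction. Small changes without a call could change sign, such as Mthfd2 with MEHP (-0.2 to 0.08). The replicate block left 5 genes called with DOM, 2 with DINCH and 0 with MEHP, BDB and DOS; it left 5, 5 and 3 for DOM against DOS, MEHP and DINCH, and changed no call among the 8 genes. Without the filter on dim probes, which raises the number of tests, 0 members and 0 genes of the wider pathway were called with DINCH, and 3 members in DOM against DOS. Leaving out 1 array gave 1 to 3 members with DINCH, the 1 without DMSO replicate 3, and 3 to 5 in DOM against DOS. Mthfd2 was the least stable call: in DOM against DOS it was lost under normexp (-0.42, adjusted p = 0.0841), and with DOM against DMSO without the filter (adjusted p = 0.0537). In DOM against DINCH the brightest Shmt1 probe lost its call under normexp (-0.55), under the fold threshold. Mthfs passed with DOM in the authors' table (0.59) and with DINCH under the slide block (0.59). For the difference between compartments, the values below moved. With wider sets of genes it was 0.09 for MEHP, 0.17 for DINCH, 0.45 for DOM and 0.14 for BDB. With counterpart enzymes only it was 0.08, 0.25, 0.12 and 0.27, and 0.01 for DOS. The Tyms-ps probe gave 0.40 for DINCH and 0.48 for DOM, and Slc19a1 among the cytosolic genes 0.30 for BDB. Leaving out 1 array gave 0.12 to 0.23 for MEHP, highest without DMSO replicate 2, 0.18 to 0.29 for BDB and 0.10 to 0.24 for DOS. The causes were not tested. Counts over all genes moved too: called genes went from 201 to 3 with MEHP and from 984 to 97 with DINCH without the filter, to 88 with MEHP without MEHP replicate 2 or 4, to 97 without DMSO replicate 3 and to 116 without MEHP replicate 1, to 571 with DINCH without DMSO replicate 3, from 0 to 8 with DOS without DOS replicate 3, and from 0 to 120 with BDB when all groups shared a fit. The number of arrays limits the precision.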
